A study of Homo sapiens with 16 samples.

Results

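The 37 genes described here encode the autophagy machinery and 4 lysosomal proteins, in LNCaP cells treated with an androgen and 3 androgen receptor antagonists. They were taken by name from the deposited table of 60642 gene symbols, all 37 were listed there, and all 37 were among the 16636 genes tested. LNCaP is an established human prostate cancer cell line that expresses the androgen receptor and responds to androgens. Cells were grown for 72 h with 5% fetal bovine serum, depleted of androgen for 48 h in 5% charcoal-stripped serum, and then treated for 48 h. Control cells (VEH) received both solvents, ethanol and DMSO, and DHT cells received 10 nM dihydrotestosterone, an androgen. Apalutamide (APA), bicalutamide (BIC) and enzalutamide (ENZ), which block the receptor, were each given at 10 µM, either without the androgen (BIC.VEH, ENZ.VEH and APA.VEH) or together with 10 nM of it (BIC.DHT, ENZ.DHT and APA.DHT). Each of the 8 groups had 2 replicates, named here as replicate 1 and replicate 2, which gave 16 libraries. The replicates are labelled biological but no source used here says that they were separate cultures, so the p-values measure the spread between these libraries of 1 cell line.

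Autophagy delivers cytoplasmic material to the lysosome for breakdown. The ULK1 complex starts the process, a lipid kinase complex marks the forming membrane with the lipid PI3P, and 2 linked conjugation reactions attach proteins of the LC3 and GABARAP family to that membrane. Cargo receptors bring the material in, the closed vesicle fuses with the lysosome, and proteases there degrade its content. In prostate cells androgen signalling is known to act on metabolism and growth, both of which are tied to autophagy through the kinase mTOR. These steps are run by proteins, many of which are controlled after translation, so the transcript levels given here are not a measure of autophagic activity.

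Levels are given as TPM, in which the reads of a gene are divided by its length and all genes are scaled to a fixed total per library. The column totals ran from 976190 to 983114 TPM, TPM does not keep the read depth, and no counting interval can therefore be given. Markers of luminal prostate cells summed to 2013 to 2815 TPM over the libraries, against 0 to 1.75 TPM for basal markers, 0.830 to 2.30 TPM for neuroendocrine, 11.6 to 33.2 TPM for stromal and 0.930 to 12.1 TPM for immune markers. Of these other lists 1 of 3, 1 of 3, 1 of 5 and 1 of 4 genes reached the level needed for testing, and the immune markers at 0 in every library numbered 2. The androgen-induced genes KLK3, KLK2, TMPRSS2 and FKBP5, read as a check of the treatment, were called higher in DHT against VEH, by 2.68 to 6.57 on the log2 scale (limma). Over all genes, the replicates of ENZ.DHT and of APA.DHT lay further apart than those of the other groups. The mean absolute difference per gene was 0.417 and 0.430 in log2(TPM + 1), against 0.267 to 0.326. Over the members alone it was 0.281 in ENZ.DHT and 0.315 in APA.DHT, within the range of the other groups, from 0.250 in DHT to 0.340 in ENZ.VEH. Because of the spread over all genes, some results are also given without replicate 1 of both. These are the count of members called in DHT against VEH, and some values of LAMP2 and RB1CC1. Other results that include these libraries are given only with them.

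Among the members, GABARAP, a ubiquitin-like protein attached to autophagosome membranes, had the highest level, from 1025 to 1328 TPM over the 16 libraries. SQSTM1, the cargo receptor p62, followed at 368 to 820 TPM, and CTSD, the lysosomal protease cathepsin D, at 313 to 643 TPM. The ranges of SQSTM1 and CTSD overlapped over most of their length, so their order was not settled. ATG3, GABARAPL2, CTSB and LAMP2 came next, with medians of 257, 232, 172 and 161 TPM. At the other end lay ATG14, WIPI1, UVRAG and TFEB, with medians of 6.0, 7.08, 7.63 and 8.25 TPM. Their ranges overlapped one another, and no member was near 0 in any library.

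Treatment with the androgen alone lowered the level of ATG3, and of no other member at the threshold used in the fit without replicate pairing. A second fit that paired the replicates, given below, called 12 of 37 members, 10 of them lower, against 27.4% of all genes. ATG3 is the E2-like enzyme that passes LC3 and GABARAP proteins to their lipid on the autophagosome membrane. Its level was 273 and 263 TPM in VEH and at 75.2 and 75.0 TPM in DHT. With antagonist and androgen together it was 234 and 209 TPM in BIC.DHT, 273 and 248 TPM in ENZ.DHT, and 289 and 265 TPM in APA.DHT. The DHT libraries were thus the lowest of all 16 and lay far from the rest, since the next lowest library was at 209 TPM. With antagonist alone it was 261 and 228 TPM in BIC.VEH, 261 and 227 TPM in ENZ.VEH, and 301 and 253 TPM in APA.VEH. ATG3 fell by 1.82 on the scale of log2(TPM + 1) in DHT against VEH (SE 0.13, limma, adjusted p = 1.8e-05), a 3.54-fold lower level, and ranked 101 from the lowest log2 fold change among the 16636 genes tested.

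**Figure D1:**
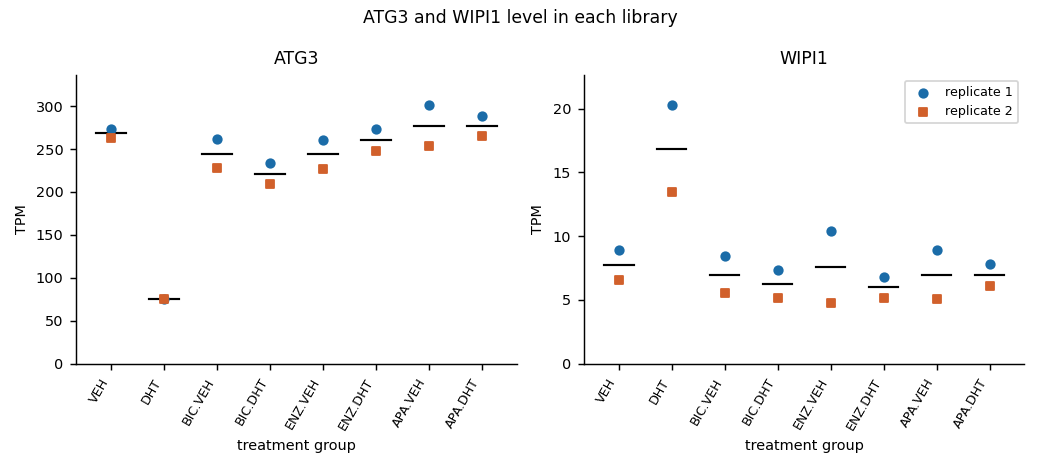
TPM of ATG3 (left) and WIPI1 (right) in each of the 16 libraries, by treatment group on the x axis. Points are replicates 1 and 2 and bars are group means; the DHT libraries are the lowest for ATG3 (75.2 and 75.0 TPM) and the highest for WIPI1 (20.2 and 13.5 TPM).

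ATG3 lies on the minus strand of chromosome 3, at chr3:112532510-112561962 of GRCh38.p14 in RefSeq, and its first 643 bases overlap the start of SLC35A5, which runs the other way. The libraries were made with a stranded kit, but it is not stated whether the counting used strand, so reads from the overlap cannot be assigned with certainty. The window around the start of ATG3 is shown because this gene carried the clearest difference, beside that of WIPI1, the member that moved the other way. Each run holds the 250 bases before the start and the first 20 transcribed bases, 5′ to 3′ on the minus strand, from RefSeq on GRCh38.p14, at chr3:112561943-112562212 for ATG3 and chr17:68457477-68457746 for WIPI1. Capitals mark CACGTG, the core of the E-box, a motif that transcription factors of the TFEB and MYC families can bind.
ATG3: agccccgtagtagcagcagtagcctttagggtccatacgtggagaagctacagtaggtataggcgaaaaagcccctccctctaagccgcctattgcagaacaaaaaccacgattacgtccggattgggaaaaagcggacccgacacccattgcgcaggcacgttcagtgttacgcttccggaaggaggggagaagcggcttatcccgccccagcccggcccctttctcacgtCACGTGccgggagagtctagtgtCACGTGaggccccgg
WIPI1: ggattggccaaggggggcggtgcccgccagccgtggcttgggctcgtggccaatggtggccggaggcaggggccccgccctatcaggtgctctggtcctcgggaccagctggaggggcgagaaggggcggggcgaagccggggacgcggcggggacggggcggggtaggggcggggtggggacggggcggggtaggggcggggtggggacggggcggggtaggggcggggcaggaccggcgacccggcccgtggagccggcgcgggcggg
The ATG3 window held CACGTG at 2 places, starting 18 bases before and 5 bases after the first transcribed base, and the WIPI1 window held none. Windows of 300 bases, from 250 before to 50 after the start, were given for 31 of the 37 members, and not for RB1CC1, UVRAG, ATG4D, MAP1LC3A, LAMP2 and CTSB. CACGTG, searched on both strands, was in the windows of 4 of the 31 members (ATG3, ATG14, CTSD and LAMP1), or 12.9%, and in 7.26% of all 35116 windows. The CLEAR element of lysosomal genes, a longer motif that contains the E-box core, and the full palindromic androgen response element, both searched on both strands without mismatches, were in no member's window and in 0.353% and 0.00285% of all windows. These are matches of letters, and no binding was measured.

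WIPI1 moved the opposite way, although its difference between DHT and VEH passed the threshold only once the replicates were paired. WIPI1 binds PI3P on the forming autophagosome. It was at 8.94 and 6.53 TPM in VEH and at 20.2 and 13.5 TPM in DHT. With an antagonist and androgen it was at 7.37 and 5.13 TPM in BIC.DHT, 6.80 and 5.15 TPM in ENZ.DHT, and 7.78 and 6.05 TPM in APA.DHT. The groups with an antagonist alone lay between 4.74 and 10.4 TPM, so that the DHT libraries were above all 14 others. The log2 fold change of WIPI1 in DHT against VEH was 1.02 (SE 0.36, limma, adjusted p = 0.10). Replicate numbers were shared over the groups and the libraries with the same number deviated together, so a second limma model with the replicate number as a term, called the replicate block here, was fitted, and gave an adjusted p of 0.00086. WIPI1 is on chromosome 17, at chr17:68421281-68457496 on the minus strand, and overlaps the coding genes ARSG and PRKAR1A on the plus strand, the second over its whole length, so that the same doubt about strand applies to it.

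In all, 1 of 37 members was called in DHT against VEH, ATG3, against 10.3% of all genes tested (limma, adjusted p below 0.05). With the replicate block 12 of 37 were called, 2 higher and 10 lower, against 27.4% of all genes. The median log2 fold change was -0.07 over the members and -0.10 over all genes tested, and 30 of the 37 members had a log2 fold change smaller than 0.5 in size. Under median-ratio scaling of the libraries the members' median was 0.04 and that of all genes 0.00, and the genes called higher were 949 of 1848, against 604 of 1709 without it. The median thus changed its sign with the scaling, while ATG3 was called lower under both.

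**Figure D2:**
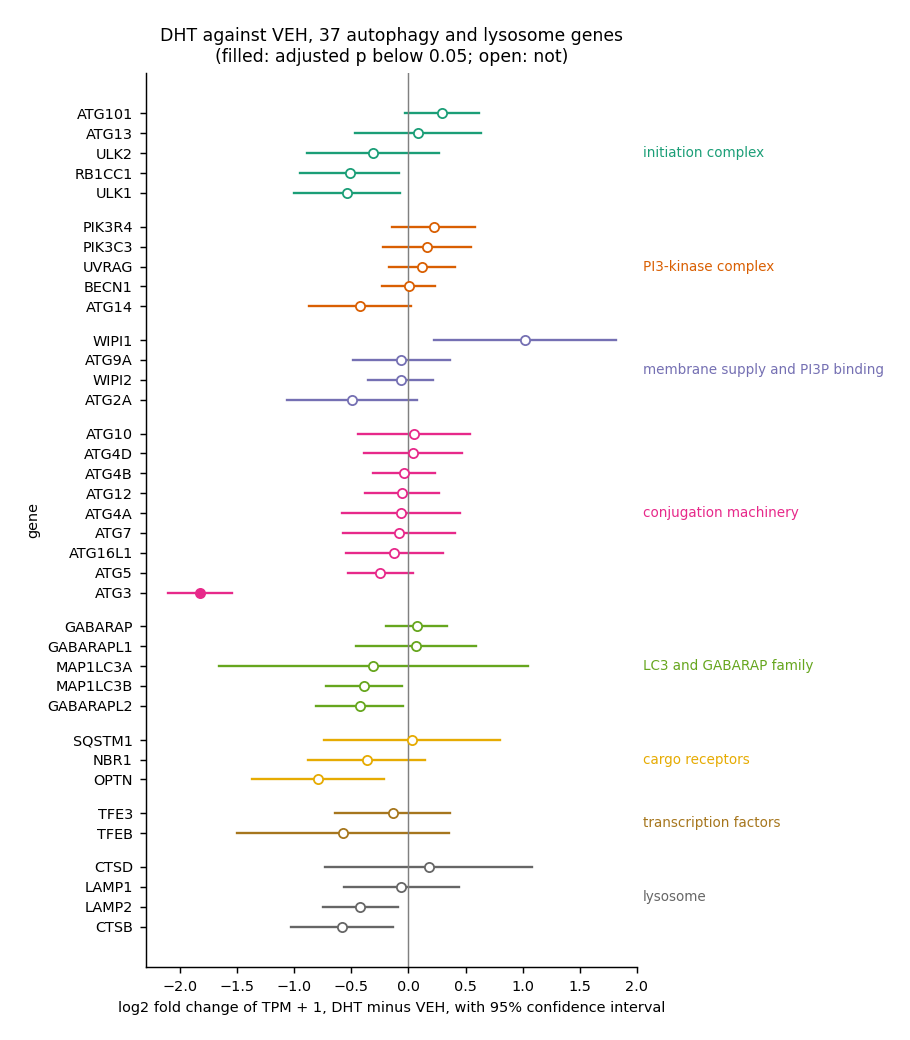
Log2 fold change of TPM + 1 in DHT against VEH for each of the 37 members, grouped by role, with the 95% confidence interval from limma (x axis). The filled point marks the 1 member called, ATG3 at -1.82, and open points mark the others, of which WIPI1 at 1.02 and OPTN at -0.79 lie furthest from 0.

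In the initiation complex, which receives signals from nutrient sensing kinases, 0 of 5 members were called. ULK1, its protein kinase, was at 55.1 and 38.5 TPM in VEH and at 29.9 and 33.1 TPM in DHT, and its log2 fold change of -0.54 ± 0.21 (SE) had an adjusted p of 0.14 by limma, and of 0.030 with the replicate block. RB1CC1, the scaffold FIP200, was at 18.4 and 18.2 TPM in VEH and at 11.8 and 13.3 TPM in DHT, with a log2 fold change of -0.51 ± 0.20 (SE) and an adjusted p of 0.13 by limma, or 0.061 with the block. Both genes had DHT libraries below both VEH libraries, without a call in the fit that leaves out the block. They were named for their small p in this comparison, so such a gap is part of the choice. ATG101, which stabilises ATG13 in the complex, was at 35.6 and 30.0 TPM in VEH and at 40.9 and 39.8 TPM in DHT, with a log2 fold change of 0.29 ± 0.15 (SE) and an adjusted p of 0.24 by limma, or 0.027 with the block. ULK2 (-0.31) and ATG13 (0.09) were not called under either fit.

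The PI3-kinase complex, which makes PI3P, had 0 of 5 members called. ATG14, the subunit that directs the complex to autophagosomes, was at 5.62 and 6.88 TPM in VEH and at 3.96 and 4.82 TPM in DHT, a log2 fold change of -0.43 ± 0.20 (SE) and an adjusted p of 0.22 by limma, or 0.036 with the block. Its DHT libraries were below all others but the first replicates of ENZ.DHT and APA.DHT, which were both at 4.49 TPM. BECN1, PIK3C3, PIK3R4 and UVRAG had log2 fold changes between 0.00 and 0.22. Of the genes for membrane supply, ATG2A, a lipid transfer protein, was at 27.99 and 18.2 TPM in VEH and at 17.8 and 13.9 TPM in DHT, and its log2 fold change of -0.49 was called only with the block (limma, adjusted p = 0.26 without and 0.014 with it). ATG9A, a lipid scramblase, and WIPI2 were at -0.06 and -0.07.

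Of the conjugation machinery, 1 of 9 members was called, and the other 8 had log2 fold changes between -0.25 and 0.05. ATG5, which is joined to ATG12, was at 32.0 and 33.7 TPM in VEH and at 24.2 and 31.3 TPM in DHT, with a log2 fold change of -0.25 ± 0.13 (SE) and an adjusted p of 0.26 by limma, or 0.13 with the block. ATG7, the E1-like enzyme that hands LC3 to ATG3, was at 21.9 and 21.4 TPM in VEH and at 18.6 and 22.4 TPM in DHT, so that the groups overlapped. ATG12, ATG16L1, ATG10 and the proteases ATG4A, ATG4B and ATG4D were likewise not called under either fit. ATG3 was thus the one gene of this machinery that was called, beside 8 that were not.

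The LC3 and GABARAP family had 0 of 5 members called. MAP1LC3B, the family member most used to follow autophagosomes, was at 65.2 and 60.3 TPM in VEH and at 49.8 and 45.5 TPM in DHT, a log2 fold change of -0.39 ± 0.15 (SE) and an adjusted p of 0.14 by limma, or 0.019 with the block. GABARAPL2 was at 267 and 239 TPM in VEH and at 194 and 182 TPM in DHT, a log2 fold change of -0.43 ± 0.17 (SE) and an adjusted p of 0.15 by limma, or 0.0026 with the block. The DHT libraries of both genes lay below their VEH libraries, a gap that is again part of their choice by small p. GABARAP and GABARAPL1, both at 0.07, did not separate the groups. MAP1LC3A was at 22.1 and 9.89 TPM in VEH and at 15.3 and 9.08 TPM in DHT, where the replicates differed by more than the groups. MAP1LC3B and GABARAPL1 have near copies in the genome (MAP1LC3B2 and GABARAPL3), between which an estimate can split reads, so their levels are less certain.

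Of the cargo receptors 0 of 3 were called. OPTN, which brings ubiquitinated mitochondria and bacteria to the autophagosome, had the value furthest below 0 among those not called, at 16.0 and 12.5 TPM in VEH and at 9.09 and 6.56 TPM in DHT, a log2 fold change of -0.79 ± 0.26 (SE) and an adjusted p of 0.083 by limma, or 0.0016 with the block. SQSTM1 was at 538 and 368 TPM in VEH and at 539 and 385 TPM in DHT, replicate by replicate close to equal. NBR1 was at 91.1 and 85.3 TPM in VEH and at 72.3 and 64.2 TPM in DHT, a log2 fold change of -0.37 that was not called under either fit. The transcription factors TFEB and TFE3, which act on lysosomal genes, were not called, and TFEB, at 13.7 and 7.73 TPM in VEH and at 8.13 and 5.34 TPM in DHT, was called lower only with the block (limma, adjusted p = 0.43 without and 0.0077 with it).

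Of the 4 lysosome members 0 were called. CTSB, the protease cathepsin B, was at 231 and 174 TPM in VEH and at 147 and 122 TPM in DHT, a log2 fold change of -0.58 ± 0.20 (SE) and an adjusted p of 0.095 by limma, or 0.011 with the block. LAMP2, a membrane protein needed for fusion of the vesicle with the lysosome, was at 163 and 170 TPM in VEH and at 123 and 125 TPM in DHT, a log2 fold change of -0.42 ± 0.15 (SE) and an adjusted p of 0.10 by limma, or 0.037 with the block. Both genes had DHT libraries below the VEH libraries, which is part of their choice by small p in this comparison. The groups of LAMP1 (-0.06) and CTSD (0.18), not chosen that way, overlapped. Without replicate 1 of both ENZ.DHT and APA.DHT the members called in DHT against VEH were 4 of 37 in place of 1, against 15.8% of all genes in that fit, with adjusted p = 0.010 for LAMP2 and 0.041 for RB1CC1 by limma.

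**Figure D3:**
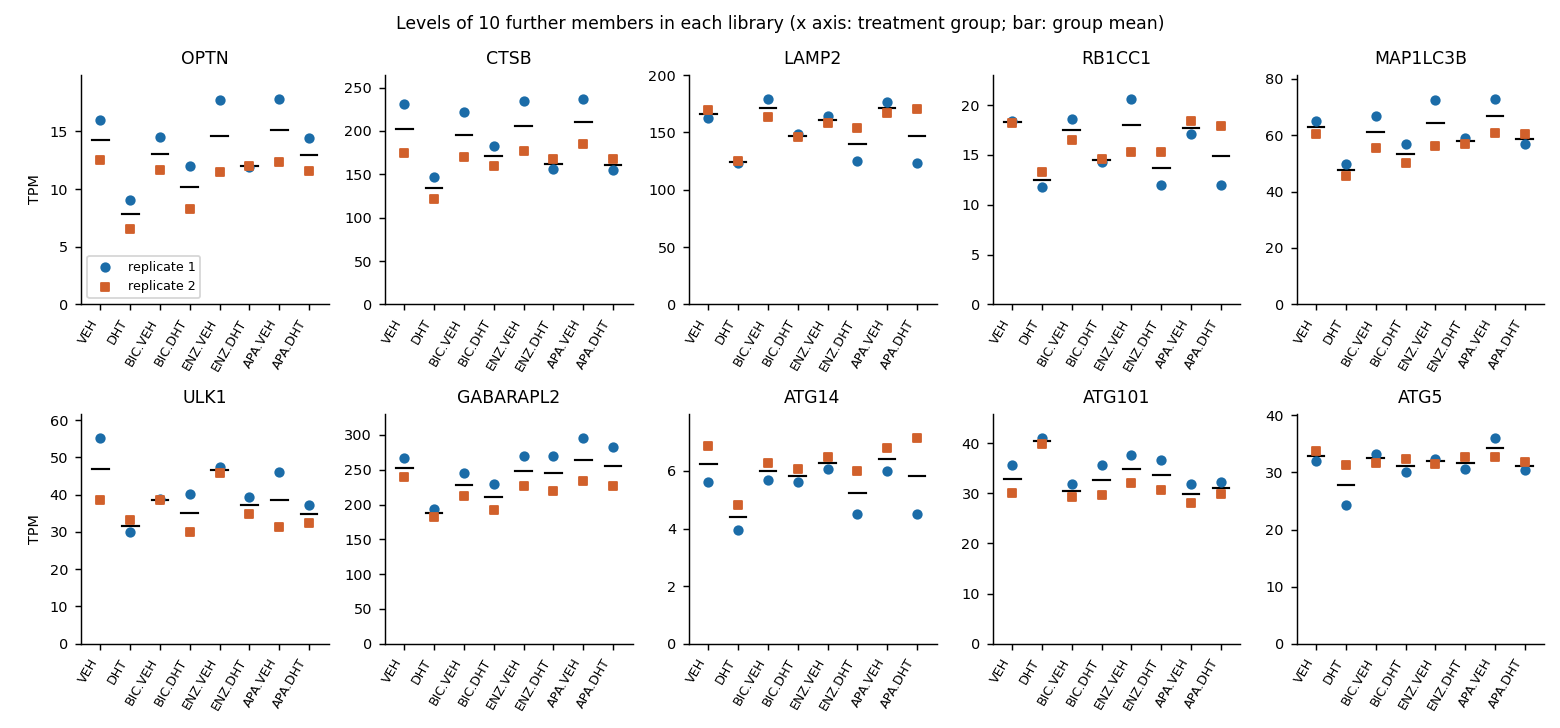
TPM of 10 further members in each library, by treatment group on the x axis, with replicates as points and group means as bars. These members were taken for their small p in DHT against VEH, so a gap between those groups is part of the choice; OPTN, for example, is at 9.09 and 6.56 TPM in DHT and 16.0 and 12.5 TPM in VEH.

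Of a list of 10 genes of dividing cells, 0 were called in DHT against VEH by limma (adjusted p = 0.20 to 0.66), and 9 were called higher with the replicate block. The summed level of the list was 157 and 387 TPM in VEH, 404 and 828 TPM in DHT, and 113 to 560 TPM in the other 12 libraries, and was higher in replicate 2 in all 8 groups. The share of TPM on mitochondrial genes was 22.3% in the first DHT library and 14.7% to 20.6% in the others. Without the mitochondrial genes the same number of members was called in DHT against VEH, and the members' median log2 fold change was -0.03 in place of -0.07. The part of dividing cells or of the mitochondrial share in the members' values was not tested.

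With an antagonist beside the androgen, ATG3 was higher than with the androgen alone in all 3 cases. ATG3 rose by 1.55 on the log2 scale in BIC.DHT against DHT (SE 0.13, limma, adjusted p = 0.00015), by 1.78 in ENZ.DHT (adjusted p = 3.0e-05) and by 1.87 in APA.DHT (adjusted p = 2.4e-05). These comparisons share the DHT libraries with each other and with DHT against VEH, so a low value in DHT enters all of them. Relative to the difference between DHT and VEH of the same replicate on the log2 scale, 15.2% ± 4.38 (SD, n = 2) was left in BIC.DHT, 2.39% ± 3.50 in ENZ.DHT and -2.49% ± 2.62 in APA.DHT. The 2 replicates were at -0.083% and 4.86% in ENZ.DHT and at -4.34% and -0.64% in APA.DHT, too few values for an interval. Fitted on the libraries of DHT and 1 antagonist only, the adjusted p of ATG3 was 0.098, 0.061 and 0.10, with few residual degrees of freedom.

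WIPI1 was the other member called with an antagonist. It fell by 1.34 on the log2 scale in ENZ.DHT against DHT (SE 0.36, limma, adjusted p = 0.040), a 2.53-fold lower level, and that call was lost without any 1 of the 4 libraries compared (adjusted p = 0.085 to 0.20) and without a filter on low values (adjusted p = 0.086). In BIC.DHT and APA.DHT its log2 fold changes were -1.29 and -1.16 (limma, adjusted p = 0.088 and 0.074), and with the replicate block all 3 were called (adjusted p = 0.00058, 0.00017 and 0.00045 for BIC, ENZ and APA). The 6 libraries with antagonist and androgen were at 5.13 to 7.78 TPM, below the lower DHT library at 13.5 TPM.

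The members called were 1 of 37 in BIC.DHT against DHT, 2 of 37 in ENZ.DHT against DHT and 1 of 37 in APA.DHT against DHT, against 3.13%, 9.65% and 8.36% of all genes (limma). With the replicate block 3, 6 and 7 members were called, against 13.3%, 29.2% and 27.3% of all genes. ATG101 was called lower with all 3 antagonists in that fit (limma, adjusted p = 0.042, 0.044 and 0.0097 for BIC, ENZ and APA). OPTN was higher with ENZ and APA (log2 fold changes 0.57 and 0.67, adjusted p = 0.0096 and 0.0045 with the block), and so was GABARAPL2 (0.37 and 0.43, adjusted p = 0.0055 and 0.0027). The remaining calls with the block were BECN1 lower with ENZ (adjusted p = 0.044) and TFEB higher and CTSD lower with APA (adjusted p = 0.012 and 0.048). The members' median log2 fold change was -0.05, -0.04 and -0.07 with BIC, ENZ and APA, and that of all genes 0.00, -0.01 and 0.00.

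OPTN, CTSB, LAMP2 and RB1CC1 were named for their small p in DHT against VEH. The same DHT libraries serve here, so a gap between them and the antagonist groups partly follows from that choice. Levels of OPTN were 12.04 and 8.25 TPM in BIC.DHT, 11.9 and 12.03 TPM in ENZ.DHT, and 14.4 and 11.5 TPM in APA.DHT, so that only the BIC.DHT libraries reached into the range of DHT. CTSB was at 182 and 160 TPM in BIC.DHT, 156 and 167 TPM in ENZ.DHT, and 155 and 167 TPM in APA.DHT, all above DHT and 5 of the 6 below both VEH libraries. LAMP2 was at 148 and 146 TPM in BIC.DHT, 125 and 154 TPM in ENZ.DHT, and 124 and 170 TPM in APA.DHT. The first replicates of ENZ.DHT and APA.DHT were thus as low as DHT for LAMP2 while the second were not. Without them the APA.DHT group holds 1 library, and the log2 fold change of LAMP2 in APA.DHT against DHT was 0.45. RB1CC1 showed the same split, at 11.98 and 15.3 TPM in ENZ.DHT and 12 and 17.9 TPM in APA.DHT, and was at 14.3 and 14.6 TPM in BIC.DHT.

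Among the others, ULK1 was at 40.1 and 30.0 TPM in BIC.DHT, 39.4 and 34.9 TPM in ENZ.DHT, and 37.3 and 32.5 TPM in APA.DHT. MAP1LC3B was at 56.8 and 50.02 TPM in BIC.DHT, 58.9 and 56.8 TPM in ENZ.DHT, and 57.0 and 60.4 TPM in APA.DHT. ULK1 therefore overlapped DHT with BIC and APA, while MAP1LC3B lay above DHT with each antagonist, without a call. These genes and those that follow were also named for their small p in DHT against VEH. Their position against the same DHT libraries thus partly follows from that choice. GABARAPL2 was at 230 and 192 TPM in BIC.DHT, 270 and 219 TPM in ENZ.DHT, and 283 and 227 TPM in APA.DHT. ATG14 was at 5.61 and 6.07 TPM in BIC.DHT, 4.49 and 5.99 TPM in ENZ.DHT, and 4.49 and 7.13 TPM in APA.DHT. The BIC.DHT libraries of both genes were less spread than those with APA. ATG101 was at 35.6 and 29.7 TPM in BIC.DHT, 36.6 and 30.7 TPM in ENZ.DHT, and 32.2 and 29.8 TPM in APA.DHT, all below DHT. ATG5 was at 30.0 and 32.3 TPM in BIC.DHT, 30.7 and 32.8 TPM in ENZ.DHT, and 30.4 and 31.8 TPM in APA.DHT, against 24.2 and 31.3 TPM in DHT, so that a single DHT library stood apart.

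The difference between the response to androgen with and without an antagonist was tested as an interaction, in which 1 of 37 members, ATG3, was called for each antagonist. Its interaction was 1.68 on the log2 scale for BIC (limma, adjusted p = 0.0016), 1.92 for ENZ (adjusted p = 0.00078) and 1.83 for APA (adjusted p = 0.0010), each with an SE of 0.18. The share of all genes called was 0.986%, 1.63% and 1.42%. With the replicate block 2, 3 and 3 members were called, against 6.39%, 9.91% and 10.1% of all genes, WIPI1 with each antagonist (limma, adjusted p = 0.012, 0.0063 and 0.018 for BIC, ENZ and APA), GABARAPL2 with ENZ (adjusted p = 0.046) and TFEB with APA (adjusted p = 0.049).

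Without androgen the antagonists left the members close to VEH. In BIC.VEH, ENZ.VEH and APA.VEH against VEH 0 of 37 members were called by limma, against 0%, 0% and 0.00601% of all genes. At an unadjusted p below 0.05 there were 0, 0 and 1 members, against 1.17%, 0.836% and 0.908% of all genes, and the 1 member was UVRAG, a partner of BECN1, at 9.63 and 10.1 TPM in APA.VEH and 7.21 and 7.56 TPM in VEH (limma, adjusted p = 1.0). All 37 members had log2 fold changes below 0.5 in size in these comparisons. For ATG3 the 95% confidence interval of the difference from VEH ran from -0.42 to 0.15 with BIC, from -0.42 to 0.14 with ENZ and from -0.24 to 0.32 with APA, on the log2 scale.

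Androgen against no androgen under an antagonist likewise gave 0 of 37 members with each of BIC, ENZ and APA by limma, against 0%, 0.00601% and 0.00601% of all genes. At an unadjusted p below 0.05 the members were 0, 1 and 2, against 1.41%, 3.25% and 2.45% of all genes. These were UVRAG, lower with ENZ and APA (log2 fold changes -0.33 and -0.41), and ATG9A, lower with APA (-0.43), where its libraries were at 44.7 and 40.1 TPM without and 26.6 and 36.4 TPM with androgen. For ATG3 the log2 difference was -0.14 with BIC (95% confidence interval -0.42 to 0.14), 0.10 with ENZ (-0.19 to 0.38) and 0.00 with APA (-0.28 to 0.29), so a change as large as that without antagonist lay outside all 3 intervals.

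The antagonists were compared with each other at the same dose and time. ENZ and APA share a diarylthiohydantoin core and differ in a ring on that core and in one aromatic ring, while BIC is an anilide with another core. In the presence of androgen 0 of 37 members were called by limma in ENZ against BIC, APA against BIC and APA against ENZ, where 0.00601%, 0% and 0.00601% of all genes were called. At an unadjusted p below 0.05 the members were 0, 1 and 0, against 3.4%, 2.9% and 0.613% of all genes. The 1 member was ATG3, whose level with APA was above that with BIC by 0.32 on the log2 scale (95% confidence interval 0.04 to 0.60, limma, adjusted p = 1.0). For ENZ against BIC the ATG3 difference was 0.23 (-0.05 to 0.52) and for APA against ENZ 0.09 (-0.19 to 0.37), so the intervals reach up to 0.52 and 0.37. Over the 37 members the differences of APA against ENZ ran from -0.21 to 0.21. Without androgen 0 of 37 members were called in the same 3 pairs by limma, against 0%, 0.012% and 0.00601% of all genes, and 0, 1 and 0 members had an unadjusted p below 0.05, against 1.79%, 1.57% and 1.64% of all genes. That member was UVRAG, higher with APA than with BIC by 0.36 on the log2 scale.

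The genes that work around the members were read in 4 lists drawn up from general knowledge. Of the lysosomal hydrolases and membrane proteins 7 of 51 tested were called in DHT against VEH, 3 higher and 4 lower (limma). Of all genes 10.3% were called. NPC1, which exports cholesterol from the lysosome, went from 86.8 and 57.8 TPM in VEH to 171 and 130 TPM in DHT, a rise of 1.06 on the log2 scale (adjusted p = 0.0086). ASAH1, the acid ceramidase, went from 178 and 144 TPM to 348 and 306 TPM, a rise of 1.02 (limma, adjusted p = 0.0090). In both genes the DHT libraries were the 2 highest of all 16, which is partly a result of their choice by log2 fold change in DHT against VEH. LAPTM4B, a lysosomal membrane protein, went from 54.4 and 68.1 TPM to 18.2 and 18.9 TPM and fell by 1.66 on the log2 scale (limma, adjusted p = 0.0038). CTSF, the protease cathepsin F, went from 72.0 and 60.9 TPM to 32.5 and 33.3 TPM and fell by 0.99 (limma, adjusted p = 0.0015). The list was thus divided between higher and lower genes, with a median log2 fold change of -0.12. The members CTSB and CTSD were not called in the fit without the replicate block, and CTSB was called lower with it.

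Of the other autophagy genes 5 of 42 tested were called in DHT against VEH, 2 higher and 3 lower, where 10.3% of all genes were called. VMP1, a lipid scramblase of the endoplasmic reticulum, went from 105 and 118 TPM to 206 and 253 TPM, a rise of 1.03 on the log2 scale (limma, adjusted p = 0.0055). TEX264, a receptor for autophagy of the endoplasmic reticulum, went from 94.6 and 83.3 TPM to 149 and 144 TPM, a rise of 0.71 (limma, adjusted p = 0.0024). RETREG1, another receptor for the endoplasmic reticulum, went the other way, from 35.6 and 38.3 TPM to 16.5 and 18.6 TPM, and fell by 1.03 (limma, adjusted p = 0.011). TAX1BP1, a cargo receptor related in role to the members NBR1 and OPTN, went from 220 and 204 TPM to 129 and 121 TPM and fell by 0.76 (limma, adjusted p = 0.0097). Receptors thus moved in both directions. The members among them were not called in the fit without the replicate block, but OPTN, at -0.79 on the log2 scale, was called lower with it.

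In the list of mTORC1, AMPK and nutrient sensing genes 1 of 37 was called, MTOR, the kinase that restrains autophagy when nutrients are present. It was at 17.8 and 16.9 TPM in VEH and at 27.3 and 24.6 TPM in DHT, a rise of 0.55 on the log2 scale (limma, adjusted p = 0.012). The V-ATPase, the proton pump that acidifies the lysosome, had 0 of 18 subunits called (limma). The medians were -0.14 for the other autophagy genes, -0.09 for nutrient sensing and -0.01 for the V-ATPase, against -0.10 for all genes, of which 10.3% were called. With the replicate block 22, 10, 10 and 3 genes were called in the lysosomal, other autophagy, nutrient sensing and V-ATPase lists, against 27.4% of all genes. Of these 14, 7, 9 and 1 were lower, so the rise of MTOR was not the direction of most calls in its list. Of the 9 genes named from these lists, all but LAPTM4B lost their call in DHT against VEH when only the VEH and DHT libraries were fitted (limma, adjusted p = 0.058 to 0.11). In the full fit MTOR, RETREG1, NPC1, ASAH1, VMP1 and TAX1BP1 also lost it when some single libraries of VEH or DHT were left out.

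With antagonist and androgen against androgen alone, 3, 7 and 7 of the 51 lysosomal genes were called with BIC, ENZ and APA, and 3, 5 and 4 of the 42 other autophagy genes, where 3.13%, 9.65% and 8.36% of all genes were called. With the replicate block these were 11, 23 and 22 lysosomal and 8, 13 and 9 other autophagy genes, where 13.3%, 29.2% and 27.3% of all genes were called. NPC1 fell by 0.89, 1.27 and 1.21 on the log2 scale with BIC, ENZ and APA (limma, adjusted p = 0.047, 0.0040 and 0.0052), and VMP1 by 0.84, 1.13 and 1.16 (adjusted p = 0.037, 0.0040 and 0.0036). RETREG1 rose by 1.09, 0.90 and 0.78 (limma, adjusted p = 0.020, 0.024 and 0.045). MTOR fell by 0.65 with ENZ and 0.64 with APA (limma, adjusted p = 0.0055 and 0.0062), and its log2 fold change with BIC was -0.43 (adjusted p = 0.076, and 0.015 with the block). NPC1, VMP1, RETREG1 and MTOR were named for their calls in DHT against VEH, and the same DHT libraries enter these comparisons. Of the V-ATPase list 0 of 18 were called with any antagonist, and with the block 2, 4 and 1 were called lower with BIC, ENZ and APA.

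**Figure D4:**
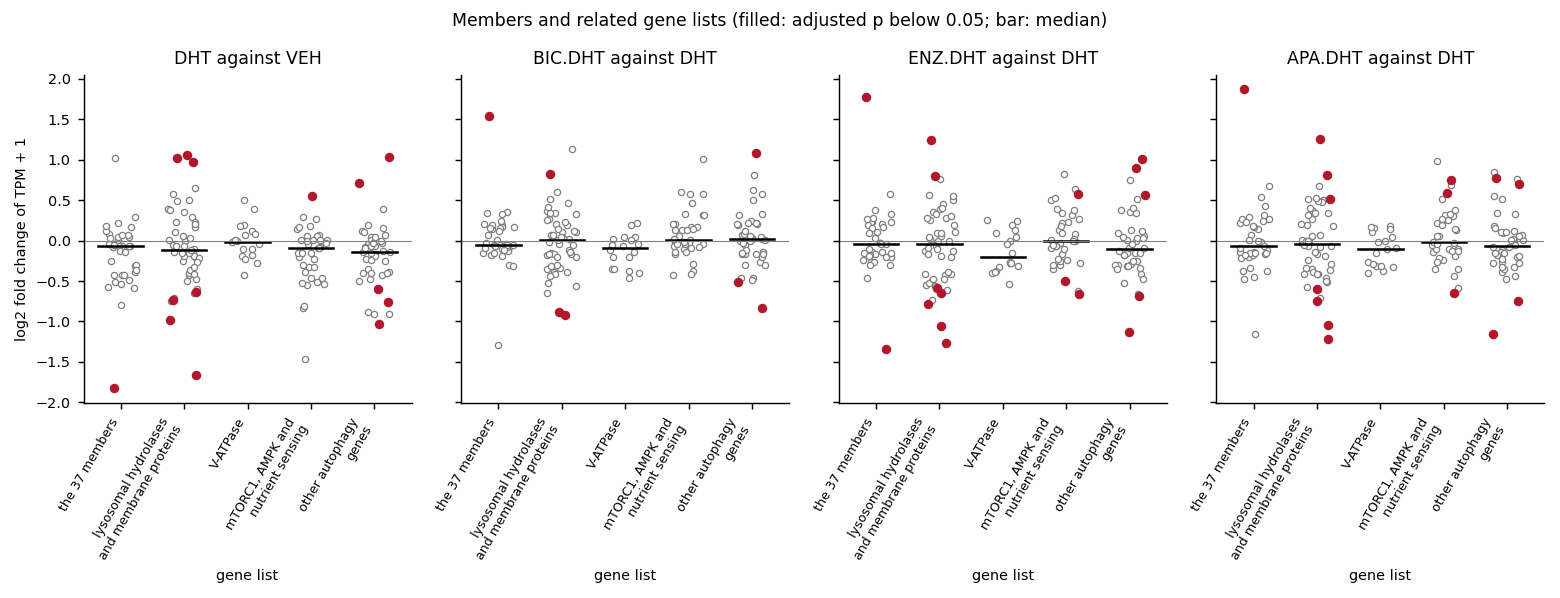
Log2 fold change of TPM + 1 for each tested gene (points) of the 37 members and the 4 related lists (x axis), in DHT against VEH and in each antagonist with DHT against DHT. Filled points were called and bars are medians; among the members ATG3 is the point at -1.82 in the first panel and at 1.55, 1.78 and 1.87 in the others.

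Replicate 1 and replicate 2 differed in the same direction in many members. Replicate 1 was higher in all 8 groups for 13 of the 37 members, and replicate 2 in all 8 groups for 1, ATG14. One direction in all groups was thus seen in 37.8% of the members, against 28.2% of all genes tested. Over all 16636 genes tested, replicate 1 was higher in all 8 groups for 1734 and replicate 2 for 2957. The more frequent direction was thus replicate 1 among the members and replicate 2 among all genes. The offset was largest for MAP1LC3A, a 2.04-fold median difference, followed by TFEB at 1.61-fold, CTSD at 1.59-fold, SQSTM1 at 1.43-fold and WIPI1 at 1.4-fold. For MAP1LC3A, replicate 1 ranged from 15.3 to 24.0 TPM and replicate 2 from 7.06 to 11.9 TPM, which do not overlap in any group. For ATG3 the offset was 1.11-fold, small beside its 3.54-fold difference between VEH and DHT. In ENZ.DHT and APA.DHT replicate 1 was higher in 18 and 19 of the 37 members, against 24 to 34 in the other 6 groups.

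**Figure D5:**
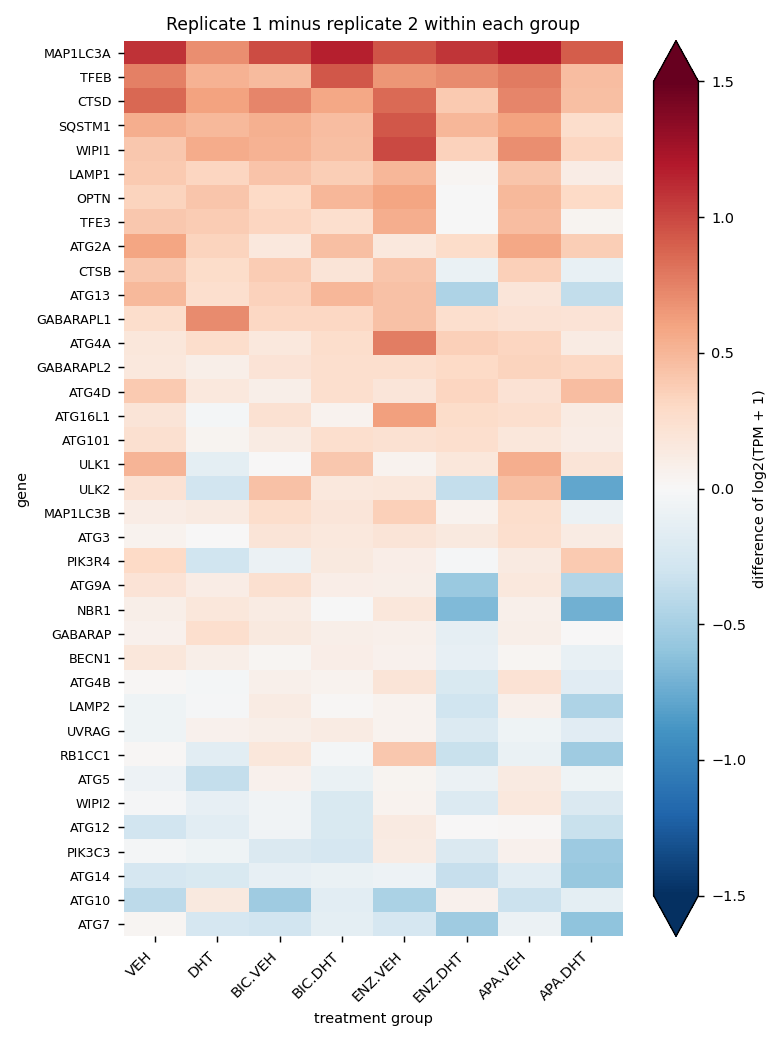
Replicate 1 minus replicate 2 of log2(TPM + 1) for each member (y axis, ordered by the median) in each treatment group (x axis), with red where replicate 1 was higher. MAP1LC3A, TFEB and CTSD at the top are red in all 8 groups, and the ENZ.DHT and APA.DHT columns hold more blue than the others.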

How the data were processed

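RNA was sequenced from 16 libraries of LNCaP cells, stranded and selected for polyadenylated RNA. Per the submitters' processing notes, the authors used FastQC 0.11.9, Trim Galore 0.6.5, STAR 2.7.2b and RSEM 1.3.3 on GRCh38, and deposited TPM values by gene symbol with a column for each library. The read depth cannot be recovered from TPM, and precision was judged from the replicates. No value column was left unassigned (0 columns).

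Genes that reached 1 TPM in 2 or more libraries (16636) were transformed as log2(TPM + 1), a scale on which fold changes of low genes are understated. The moderated test of limma 3.58.1 (R 4.3.3, trend option) was run on a model of 8 group means over the 16 libraries. Benjamini-Hochberg adjustment covered all genes of a contrast, and a gene was called below 0.05. The fit was tested on simulated data with independent noise in each library, which does not cover the shared replicate deviations given next. Deviations from the group means of libraries with the same replicate number, a number given in the sample titles, correlated at 0.20 to 0.64 in all 28 pairs of groups (median 0.43), so values with the replicate number as a block are given where a call changes. Other alternatives were the pseudocount, filters, scaling and leaving out libraries.

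The members and the gene lists were chosen with earlier results of these data known. Members given in full were those called in DHT against VEH or in an antagonist with DHT against DHT, filled up to 12 by the smallest p in DHT against VEH. From each related list, the rule took up to 2 called genes with the highest and 2 with the lowest log2 fold change and a mean TPM of at least 5. ATG2A, TFEB, BECN1, CTSD, UVRAG and ATG9A are also described for their calls under other settings, and were chosen after their values were seen. Positions and start windows are from RefSeq on GRCh38.p14. The result of another gene used to check the treatment is not reported here. Figures were drawn with matplotlib 3.10.9.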

Additional observations from a re-analysis of the deposited data

Results flagged for a closer look

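The response of ATG3 to DHT differed between cells with and without each antagonist, by a test of the difference itself. The interaction on the log2 scale was 1.68 for BIC, 1.92 for ENZ and 1.83 for APA (limma, SE 0.18 each, adjusted p = 0.0016, 0.00078 and 0.0010). The 3 values share the VEH and DHT libraries. Both replicates showed the direction in each case.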

How the results depend on the processing

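The number of members called was compared over pseudocount 0.1, no filter, a filter of TPM 5, median-ratio scaling, removal of mitochondrial genes, the groups compared alone, the replicate block and each library left out. ATG3 was called in DHT against VEH under all of these, and in the antagonist comparisons under all but the groups alone, where 0 members were called with BIC, ENZ and APA, each fit having few residual degrees of freedom. With the replicate block the calls were 12 in DHT against VEH, 3, 6 and 7 with BIC, ENZ and APA, and 2, 3 and 3 in their interactions, and the block changed no other call of a named member. In ENZ.DHT against DHT the count of 2 was 1 with no filter, and also 1 when any 1 of DHT replicate 1, DHT replicate 2, ENZ.DHT replicate 1 or ENZ.DHT replicate 2 was left out, the lost member being WIPI1. Without replicate 1 of both ENZ.DHT and APA.DHT, chosen after seeing the data, the count was 4 in DHT against VEH. The calls over all 16636 genes in that comparison went from 1709 to 2631. ENZ.DHT and APA.DHT then hold 1 library each, so no counts are given for their comparisons. Among named members not called, the sign turned without 1 library for ULK1 with BIC (log2 fold changes -0.065 to 0.34), ATG5 with BIC (-0.0065 to 0.35) and APA (-0.0093 to 0.35), RB1CC1 with ENZ (-0.056 to 0.27) and APA (-0.054 to 0.48), and LAMP2 with APA (-0.0044 to 0.45). The cause of these changes was not tested. TPM holds no depth, so no limit of detection can be stated.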

Other observations

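Genes next to or overlapping ATG3 and WIPI1 were read out after the values of both were seen. SLC35A5, whose start overlaps that of ATG3, was at 79.2 and 92.96 TPM in VEH and at 41.8 and 53.2 TPM in DHT, and fell by 0.85 on the log2 scale (limma, adjusted p = 0.025). CCDC80, the next coding gene beyond SLC35A5, was at 17.4 and 21.6 TPM in VEH and at 2.04 and 1.96 TPM in DHT, and fell by 2.77 (limma, adjusted p = 2.4e-05). CCDC80 rose by 2.42, 2.47 and 2.55 in BIC.DHT, ENZ.DHT and APA.DHT against DHT (limma, adjusted p = 0.00018, 7.0e-05 and 6.3e-05). SLC35A5 was not called in these comparisons, at 0.69, 0.54 and 0.64 (limma, adjusted p = 0.12, 0.13 and 0.084). With the replicate block it was called higher in each (limma, adjusted p = 0.017, 0.027 and 0.013). BTLA, on the other side of ATG3, was at 1.91 and 1.06 TPM in VEH and at 0.350 TPM in both DHT libraries, with an adjusted p of 0.23 by limma, and of 0.042 with the replicate block.

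Near WIPI1, ARSG, which overlaps it, was at 9.39 and 10.3 TPM in VEH and at 10.9 and 15.8 TPM in DHT (log2 fold change 0.39, limma, adjusted p = 0.35). PRKAR1A, which covers WIPI1 on the other strand, was at 185 and 180 TPM in VEH and at 136 and 147 TPM in DHT (-0.37, adjusted p = 0.39 by limma), opposite in sign to WIPI1. SLC16A6, which lies within ARSG, was at 3.50 and 4.08 TPM in VEH and at 6.62 and 8.75 TPM in DHT and rose by 0.85 (limma, adjusted p = 0.025).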
